A study of Mus musculus with 6 samples.

Results

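The genes described here are 10 members of the transcriptional program of ATF4 that responds to amino acid shortage and related stress: Atf4, Ddit3, Atf3, Trib3, Asns, Psat1, Phgdh, Chac1, Slc7a11 and Sesn2. They were chosen by name, and each was found by its RefSeq accession among 21094 genes with a row in the deposited count files. All 10 passed the filter on low counts and were among the 14618 genes tested.

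ATF4 is a bZIP transcription factor whose mRNA is translated more efficiently when eIF2α is phosphorylated by GCN2 upon uncharged tRNA, by PERK upon unfolded protein in the endoplasmic reticulum (ER), by PKR or by HRI. It dimerizes with C/EBP proteins, binds composite C/EBP-ATF elements, and activates genes for amino acid synthesis and import, tRNA charging, and feedback regulators of the response. In proliferating embryonic stem cells (ESCs) these genes also serve the supply of serine, asparagine and glutathione precursors for growth. An mRNA level says nothing of the translation of Atf4, which is the regulated step of the pathway.

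The libraries are poly(A) RNA-Seq of V6.5 murine ESCs, a C57BL/6-129 line, infected with lentiviral shRNAs against SMC1 (a cohesin subunit encoded by Smc1a), CAPH2 (a condensin II subunit encoded by Ncaph2), SMC2 (an ATPase of condensin I and condensin II) or GFP as the control. There was 1 library for GFP, 1 for SMC1, 2 for CAPH2 and 2 for SMC2, and the libraries of a pair carry different hairpins, named R1 and R2. The labels number the CAPH2 hairpins otherwise than the study does for its expression profiles. Which of the study's constructs R1 and R2 are is thus not settled. By the labels, all cells received puromycin at 0.5 µg/ml for 48 h and then 1 µg/ml for 48 h, were collected 96 h post selection, and had been grown for 1 passage off irradiated fibroblast feeder cells. The study's methods give another puromycin dose and state the time of collection in days from infection, not from selection. RNA of 652000 cells per library received synthetic ERCC RNAs in proportion to cell number.

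Since GFP and SMC1 have a single library each, the fit took the spread from the CAPH2 and SMC2 pairs, and the lone libraries were assumed to vary like them. The p-values thus measure the spread between hairpins, not between repeat cultures. Levels are given as RPKM, read counts normalized for the length of the exons and the depth of the library, and rested on 18823248 to 23324537 reads per library. By RPKM, Smc1a was left at 39.9% of the GFP level in the SMC1 library, Ncaph2 at 21.04% and 34.8% with CAPH2 R1 and R2, and Smc2 at 70.7% and 71.9% with SMC2 R1 and R2. With libraries scaled to the ERCC RNAs, Smc1a was still lower with SMC1 (log2 change -0.46), but Smc2 was not lower with SMC2. Smc2 had 3049 counts beside 499195 ERCC counts with GFP. It had 2255 beside 335851 with SMC2 R1 and 2079 beside 319478 with SMC2 R2. The share of counts taken by ERCC RNAs was 1.72% with GFP, 0.948% with SMC1 and 1.11% to 1.77% with the 4 condensin hairpins. In bulk RNA, fewer cells of a type and less RNA per cell cannot be told apart. The SMC1 library stood apart from the other 5 in its cell type markers. The summed RPKM of 6 ESC markers was 3096 with GFP, 1746 with SMC1 and 2591 to 2772 with the condensin hairpins, and that of 8 fibroblast markers was 53.5, 147 and 62.4 to 98.6 in the same order. Among the latter, Lum had under 10 counts in all 6 libraries and Dcn in all but SMC1. The summed RPKM of 7 primitive endoderm markers was between 17.8 and 21.1 in all 6 libraries, but with SMC1 the single markers moved in opposite directions. Lama1, which made up most of the sum in all libraries but SMC1, was at 13.1 with GFP and 6.47 with SMC1, and Gata6 was also lower. The others were higher, among them Dab2 at 2.03 with GFP and 5.52 with SMC1. Sox17 and Foxa2 had under 10 counts with GFP.

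The windows around the transcription starts were searched for the sequence that binds C/EBP-ATF dimers, because it is the element through which ATF4 is known to act on these genes. The letters TGATGNAA were searched on both strands from 250 bases before to 50 bases after the annotated start in mm9. They were found at 5 of the 10 genes and in 701 of 21094 windows of all genes, or 3.32%. The matches are printed 5′ to 3′ on the strand of the gene, with the matched letters in capitals:
Trib3 (chr2:152169764-152169793, minus strand): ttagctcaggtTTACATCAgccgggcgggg
Asns (chr6:7643205-7643252, minus strand): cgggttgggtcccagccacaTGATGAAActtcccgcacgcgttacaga
Chac1 (chr2:119176765-119176812, plus strand): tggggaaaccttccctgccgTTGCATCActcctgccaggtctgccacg
Slc7a11 (chr3:50247555-50247621, minus strand): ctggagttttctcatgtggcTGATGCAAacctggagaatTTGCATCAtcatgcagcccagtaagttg
Atf3 (chr1:193007295-193007342, minus strand): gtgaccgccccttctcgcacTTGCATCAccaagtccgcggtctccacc

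The match of Trib3 lies 15 bases after its start, and the others lie 50 bases (Asns), 193 bases (Chac1), 66 and 47 bases (Slc7a11) and 110 bases (Atf3) before theirs. Slc7a11 holds a pair of matches on opposite strands. The palindrome TGACGTCA, the full cAMP response element, was in none of the 10 windows and in 2.48% of all windows. A match of letters is not evidence of binding, and the 5 genes with a match include genes that fell and genes that rose in the SMC1 library.

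The first comparison asked whether loss of the cohesin subunit SMC1 changed the program. Relative to the bulk of the transcriptome, 6 of the 10 genes fell in the SMC1 library against GFP (Atf4, Trib3, Asns, Psat1, Phgdh and Chac1), 2 rose (Atf3 and Slc7a11), and 2 did not pass the test (Ddit3 and Sesn2). The share of all tested genes that passed was 47.9%, with 24% higher and 23.9% lower. The median log2 change was -0.46 over the 10 genes and -0.01 over all genes tested. The RPKM of the SMC1 library lay below all of the other 5 libraries for 6 genes (Atf4, Ddit3, Trib3, Asns, Psat1 and Chac1) and above all of them for 2 (Atf3 and Slc7a11), where 34.7% and 37.5% of all tested genes did so.

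**Figure D1:**
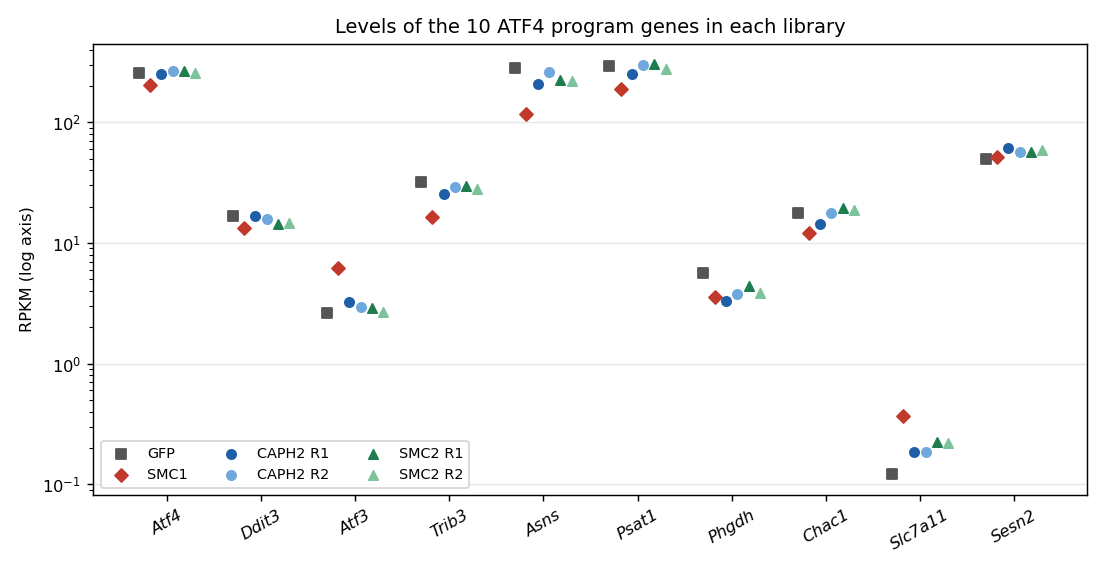
RPKM of the 10 genes (logarithmic vertical axis) in each of the 6 libraries, 1 point per library. The SMC1 library (red diamonds) is the lowest for Atf4, Ddit3, Trib3, Asns, Psat1 and Chac1 and the highest for Atf3 and Slc7a11, and the levels span from 0.121 for Slc7a11 to 301 for Psat1.

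Of the transcription factors, Atf4 itself (NM_009716, chromosome 15 from 80085614 to 80087971, plus strand, mm9) is the activator of the program. Its RPKM was 256 with GFP, 203 with SMC1, 250 and 266 with CAPH2 R1 and R2, and 266 and 254 with SMC2 R1 and R2. The SMC1 library was the lowest, and the GFP library lay within the range of the condensin libraries. The log2 change with SMC1 was -0.36 (SE 0.0957, edgeR adjusted p = 0.0114), and 79.2% of the GFP level was left (95% exact interval 76.8 to 81.8, counting error only).

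Ddit3 (NM_007837, chromosome 10 from 126727849 to 126733344, plus strand) encodes CHOP, a C/EBP family factor induced by ATF4 and linked to cell death in prolonged stress. Its RPKM was 16.6 with GFP, 13.4 with SMC1, 16.7 and 15.8 with CAPH2, and 14.3 and 14.5 with SMC2. The SMC1 library was again the lowest, but its distance to the SMC2 libraries was small, and the log2 change of -0.34 against GFP (SE 0.168) did not pass (edgeR adjusted p = 0.119).

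Atf3 (NM_007498, chromosome 1 from 192994176 to 193007212, minus strand) encodes a bZIP factor that many stress and growth signals induce besides ATF4. Its RPKM was 2.63 with GFP, 6.16 with SMC1, 3.21 and 2.96 with CAPH2, and 2.88 and 2.70 with SMC2, from 109 to 234 counts per library. The SMC1 library was the highest and the other 5 lay close together. Atf3 rose by 1.20 on the log2 scale with SMC1 (SE 0.213, adjusted p = 0.00145), and the level was 234% of GFP (186 to 296).

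Trib3 (NM_175093, chromosome 2 from 152163161 to 152169796, minus strand) encodes a pseudokinase that is induced by ATF4 and CHOP and restrains both. Its RPKM was 31.7 with GFP, 16.3 with SMC1, 25.3 and 29.1 with CAPH2, and 29.7 and 28.0 with SMC2. GFP was the highest and SMC1 the lowest library, with no overlap between SMC1 and the others. The log2 change was -0.99 (SE 0.138, adjusted p = 0.00037), which left 51.2% (46.6 to 56.3) of the GFP level.

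Of the enzymes of amino acid synthesis, Asns (NM_012055, chromosome 6 from 7625171 to 7643182, minus strand), asparagine synthetase, fell furthest among the 10 genes. Its RPKM was 281 with GFP, 118 with SMC1, 206 and 262 with CAPH2 R1 and R2, and 225 and 218 with SMC2 R1 and R2. All 5 knockdown libraries lay below GFP, and SMC1 lay below all of the others. The log2 change with SMC1 was -1.28 (SE 0.150, adjusted p = 0.000153), and 42.1% (40.6 to 43.6) of the GFP level was left.

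Psat1 (NM_177420, chromosome 19 from 15979622 to 15999515, minus strand) encodes phosphoserine aminotransferase, the middle step of serine synthesis. Its RPKM was 292 with GFP, 189 with SMC1, 251 and 300 with CAPH2, and 301 and 275 with SMC2, the highest level per length among the 10 genes in the GFP library. SMC1 was the lowest library, and GFP lay inside the range of the condensin libraries. The log2 change with SMC1 was -0.66 (SE 0.131, adjusted p = 0.00276).

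Phgdh (NM_016966, chromosome 3 from 98117094 to 98143892, minus strand) encodes phosphoglycerate dehydrogenase, the first step of serine synthesis. Its RPKM was 5.61 with GFP, 3.59 with SMC1, 3.32 and 3.81 with CAPH2, and 4.41 and 3.85 with SMC2. Here the GFP library was above all 5 knockdown libraries, and SMC1 lay within the range of the condensin libraries. The log2 change of -0.67 with SMC1 (SE 0.220, adjusted p = 0.0299) rested on 226 counts for the control and 129 for SMC1. Of the bases of the transcript, 96.5% align to at least 2 other places in the genome at 95% identity or more, and the authors discarded reads with more than 2 alignments, so the level of Phgdh is uncertain.

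Chac1 (NM_026929, chromosome 2 from 119176978 to 119180060, plus strand) encodes an enzyme that degrades glutathione in the cytosol. Its RPKM was 17.6 with GFP, 12.2 with SMC1, 14.5 and 17.8 with CAPH2 R1 and R2, and 19.4 and 18.8 with SMC2. SMC1 was the lowest library and CAPH2 R1 the next. With SMC1 the log2 change was -0.55 (SE 0.172, adjusted p = 0.0235).

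Slc7a11 (NM_011990, chromosome 3 from 50168858 to 50247535, minus strand) encodes xCT, the cystine importer that supplies glutathione synthesis and is a shared target of ATF4 and NRF2. Its RPKM was 0.121 with GFP, 0.366 with SMC1, 0.186 and 0.184 with CAPH2, and 0.226 and 0.218 with SMC2, from 24 counts for the control and 65 for SMC1. The gene was near the limit of detection throughout, with GFP the lowest and SMC1 the highest library. The log2 change with SMC1 was 1.57 (SE 0.356, adjusted p = 0.00542), and the counting interval of the ratio ran from 187% to 506% of GFP.

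Sesn2 (NM_144907, chromosome 4 from 132048722 to 132066371, minus strand) encodes a leucine-binding inhibitor of mTORC1 that both ATF4 and p53 induce. Its RPKM was 49.5 with GFP, 52.0 with SMC1, 61.6 and 56.7 with CAPH2, and 56.9 and 58.5 with SMC2. GFP and SMC1 lay below all 4 condensin libraries. With SMC1 the log2 change of 0.04 (SE 0.0985) did not pass (adjusted p = 0.739).

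**Figure D2:**
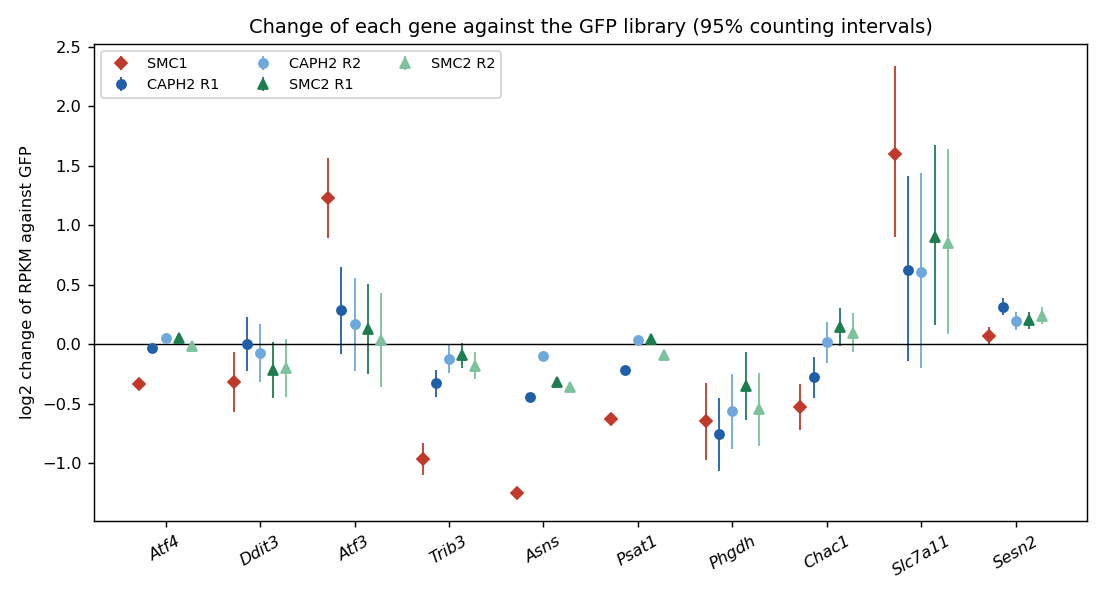
Log2 change of RPKM against the GFP library for each of the 10 genes in the 5 knockdown libraries, with bars for 95% exact intervals of the ratio of counts, hidden by the symbol where narrow. The SMC1 points run from -1.25 for Asns to 1.60 for Slc7a11, and the condensin points lie nearer to 0 for all genes but Phgdh and Sesn2; the intervals leave out the spread between cultures.

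The count of genes that fell depended on the scaling. With libraries scaled to the ERCC RNAs, the median of all genes with SMC1 moved up by 0.89 on the log2 scale, 94.3% of all calls were higher in place of 50.1%, and of the 10 genes 2 rose (Atf3 and Slc7a11) and 0 fell. Asns (-0.38) and Trib3 (-0.10) then remained below GFP without passing, while Atf4 (0.53), Psat1 (0.23), Phgdh (0.22) and Chac1 (0.34) lay above it. The fit under ERCC scaling also had a larger spread, with a common coefficient of variation of 0.250 in place of 0.0685. A change of a given size passes less readily in it. With DESeq2 in place of edgeR, Chac1 (adjusted p = 0.0661), Phgdh (0.183) and Slc7a11 (0.0906) did not pass, and Phgdh did not pass without SMC2 R1 or without SMC2 R2.

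Ratios of counts within a library do not depend on the scaling. For every 100 counts of Atf4, the libraries held 122 counts of Asns with GFP, 64.9 with SMC1 and 91.9 to 110 with the condensin hairpins. Trib3 had 14.7 counts per 100 of Atf4 with GFP, 9.51 with SMC1 and 12.0 to 13.3 with the condensin hairpins. SMC1 was the lowest library for both ratios. They have no test, and counting intervals understate their error. Over all genes, the variance between the hairpins of a pair was 7.54 (CAPH2) and 5.62 (SMC2) times that of counting noise (chi-square per degree of freedom). Psat1 had 141 counts with GFP, 115 with SMC1 and 124 to 140 with the condensin hairpins, and SMC1 was the lowest library here too. Phgdh had 2.37, 1.91 and 1.44 to 1.80 in the same order. Chac1 had 6.22, 5.45 and 5.25 to 6.72, and Ddit3 had 3.28, 3.32 and 2.72 to 3.37. For Phgdh, Chac1 and Ddit3, SMC1 lay within the range of the other libraries. Sesn2 had 29.7, 39.4 and 32.8 to 37.9, Atf3 had 1.18, 3.47 and 1.22 to 1.47, and Slc7a11 had 0.25, 0.96 and 0.37 to 0.46, and for all of these SMC1 was the highest library.

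**Figure D3:**
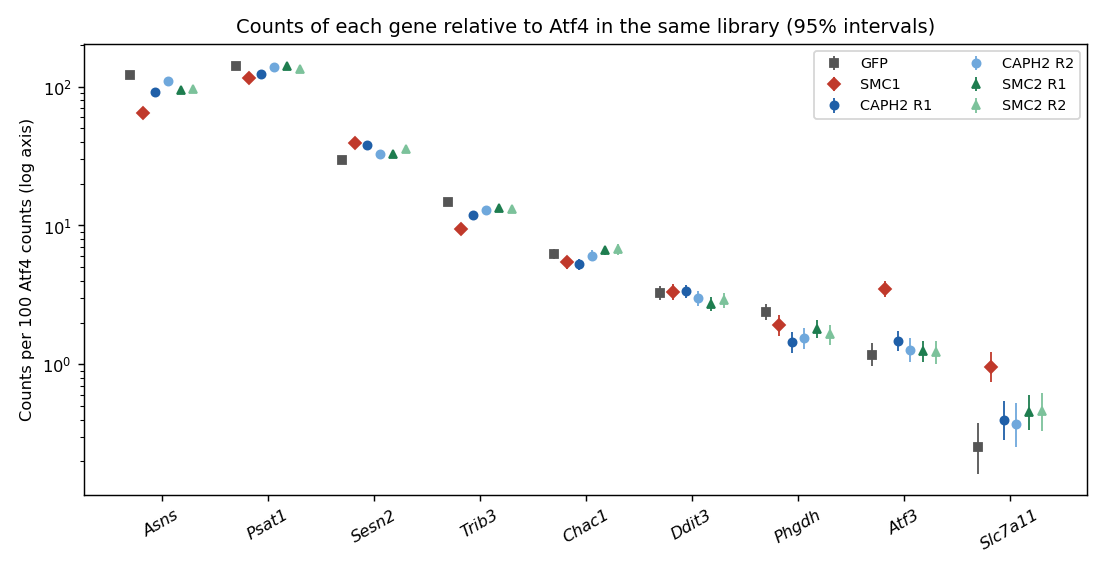
Counts of 9 genes per 100 counts of Atf4 in the same library (logarithmic vertical axis), with 95% exact intervals, which cover counting error only and do not test a difference between libraries. The SMC1 library (red diamonds) is the lowest for Asns (64.9), Psat1 (115) and Trib3 (9.51) and the highest for Atf3 (3.47), Slc7a11 (0.96) and Sesn2 (39.4).

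SMC1 was also compared with the 4 condensin libraries, which leaves out the single GFP library. In that comparison 5 of the 10 genes fell (Atf4, Trib3, Asns, Psat1 and Chac1), 2 rose (Atf3 and Slc7a11) and 3 did not pass, beside 43.9% of all tested genes that passed (22.2% higher and 21.7% lower). Asns fell by 0.98 on the log2 scale (SE 0.125, edgeR adjusted p = 0.00024) and Trib3 fell by 0.82 (SE 0.115, adjusted p = 0.000425). Psat1 fell by 0.61 (SE 0.108, adjusted p = 0.00155), Chac1 by 0.56 (SE 0.141, adjusted p = 0.0102) and Atf4 by 0.38 (SE 0.0776, adjusted p = 0.00334). Atf3 rose by 1.04 (SE 0.157, adjusted p = 0.000646) and Slc7a11 by 0.82 (SE 0.251, adjusted p = 0.0244). Phgdh, which fell against GFP, differed from the condensin libraries by -0.13 (SE 0.183, adjusted p = 0.597). Sesn2 differed by -0.20 (SE 0.0787, adjusted p = 0.0628) and Ddit3 by -0.23 (SE 0.136, adjusted p = 0.202). Under ERCC scaling only Atf3 passed (1.46), and Atf4 lay above the condensin libraries at 0.052. Slc7a11 also did not pass with DESeq2, without SMC2 R1 or without SMC2 R2, and Sesn2 passed without CAPH2 R2 (-0.21, adjusted p = 0.0385).

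The comparison of CAPH2 with GFP asked the same of condensin II. None of the 10 genes passed by edgeR, beside 7.67% of all tested genes (4.55% higher and 3.12% lower), and none passed with DESeq2. Phgdh and Sesn2 had an unadjusted p under 0.05. Phgdh had the largest change, a log2 difference of -0.66 (SE 0.185, adjusted p = 0.0577), which passed when low counts were not filtered (0.0248). Next was Slc7a11 at 0.61 (SE 0.340, adjusted p = 0.272). Asns differed by -0.26 (SE 0.126, adjusted p = 0.212), Sesn2 by 0.26 (SE 0.0857, adjusted p = 0.0893) and Trib3 by -0.22 (SE 0.114, adjusted p = 0.234). Atf4 differed by 0.01 (SE 0.0825, adjusted p = 0.954). The hairpins of the pair were unequal for Asns, of which 73.4% (71.4 to 75.5) of the GFP level was left with R1, the hairpin with the lower Ncaph2, and 93.4% (90.9 to 96.0) with R2. With R2 left out, Asns (adjusted p = 0.000153), Phgdh (0.00327) and Trib3 (0.0385) fell and Sesn2 (0.0187) rose, and 3487 genes passed in place of 1121. With R1 left out, none of these 4 genes passed.

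In SMC2 against GFP, again none of the 10 genes passed by edgeR, beside 6.33% of all tested genes (3.97% higher and 2.36% lower), and none passed with DESeq2. Asns, Phgdh, Sesn2 and Slc7a11 had an unadjusted p under 0.05. Slc7a11 differed by 0.89 on the log2 scale (SE 0.332, adjusted p = 0.128), Phgdh by -0.43 (SE 0.183, adjusted p = 0.171) and Asns by -0.33 (SE 0.126, adjusted p = 0.134). Sesn2 differed by 0.23 (SE 0.0856, adjusted p = 0.124), and the differences of Atf4, Ddit3, Trib3, Chac1, Psat1 and Atf3 lay between -0.20 and 0.13. The SMC2 hairpins gave Asns at 80.3% and 77.8% of the GFP level. Asns passed by edgeR when low counts were not filtered (adjusted p = 0.0461), where 1790 genes passed in place of 926. It also passed when CAPH2 R1 or CAPH2 R2 was left out, but neither library is part of this comparison. Leaving out either lowered the spread that all groups share, with a common coefficient of variation of 0.0578 in place of 0.0685. The comparisons with GFP share its single library, so a deviation of that library would move all of them alike.

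In CAPH2 against SMC2, which has 2 libraries in each group, none of the 10 genes passed by edgeR, beside 0.00684% of all tested genes, a single gene (Smc2 itself). None of the 10 had an unadjusted p under 0.05 or passed with DESeq2, where over all genes 450 were under 0.05 and DESeq2 called 4. The log2 differences of the 10 genes ran from -0.27 for Slc7a11 (SE 0.249) to 0.16 for Ddit3 (SE 0.117). Chac1 differed by -0.26 (SE 0.118) and Atf4 by -0.02 (SE 0.0674).

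By the measure of the study, the log2 ratio of RPKM with hairpins averaged first and no pseudocount, 14.9% of 12184 genes changed by at least 1 with SMC1 (6.49% upwards and 8.4% downwards), 1.05% with CAPH2 and 0.722% with SMC2. Genes under an RPKM of 1 with GFP were left out. Of the 10 genes, Slc7a11 was below an RPKM of 1 in GFP and thus left out, though its change with SMC1 was 1.60. With SMC1, Asns was past this fold downwards and Atf3 upwards, with Trib3 just inside it at -0.96. With a pseudocount of 1 RPKM Atf3 was inside it at 0.98, and under ERCC scaling Asns was inside it at -0.38. None of the 10 genes was past it with CAPH2 or with SMC2, but Slc7a11, left out by the same filter, reached 1.48 with SMC2 under ERCC scaling. This measure has no replicate check.

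Genes with like patterns over the 6 libraries were sought among 12272 genes by the root mean square difference of their centred log2 RPKM. Nearest to Atf4 were Ccdc58, Pcgf6, Tars, Rbbp4 and St13, at 0.019 to 0.023. Nearest to Asns were Bcl3, Grtp1, Nupr1, Ccdc160 and Zbtb7a, at 0.051 to 0.059. Trib3 was the closest of the 10 genes to Asns, at rank 112. Atf4 was at rank 2042 for Asns, and Asns at rank 8432 for Atf4, so neither was among the nearest genes of the other.

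Other genes of the pathway were taken from lists by function. Of the kinases and phosphatase subunits that act on eIF2α, with eIF2α itself (Eif2s1), 1 of 7 fell with SMC1 and 0 rose, with a median of -0.16 on the log2 scale. The gene that fell was Ppp1r15b, a subunit of the constitutive phosphatase, at -0.42 (SE 0.111, adjusted p = 0.012). Eif2ak4, which encodes GCN2, differed by -0.02 (adjusted p = 0.92), and Eif2ak3, which encodes PERK, by -0.20 (adjusted p = 0.178). These lists are to be read against the 24% of all tested genes that were higher and 23.9% that were lower with SMC1.

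Of 8 enzymes of serine, one-carbon, proline and cysteine metabolism, 6 fell and 0 rose, with a median of -0.63. Pycr1, the last step of proline synthesis, fell by 1.73 on the log2 scale (SE 0.238). Its RPKM was 18.4 with GFP, 5.62 with SMC1 and 8.92 to 13.3 with the condensin hairpins. Shmt2, which feeds the mitochondrial folate cycle from serine, fell by 1.19 (SE 0.142). Psph, the last step of serine synthesis, fell by 1.05 (SE 0.161), and Cth, which makes cysteine, by 0.85 (SE 0.121). Of the other enzymes of the serine branch, Psat1 passed as given above, while the call of Phgdh was lost with DESeq2 (adjusted p = 0.183) and without either SMC2 hairpin, and its level is uncertain.

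Of 12 cytosolic aminoacyl-tRNA synthetases, 9 fell and 0 rose, with a median of -0.42. Sars, the seryl-tRNA synthetase, fell by 1.10 (SE 0.130), Cars by 0.65 (SE 0.0994), Mars by 0.60 (SE 0.0963) and Aars by 0.49 (SE 0.110). The sequence TGATGNAA was in the windows of 7 of the 12 genes (Aars, Cars, Gars, Iars, Mars, Nars and Tars), against 3.32% of all windows. Sars, which fell furthest, had no match in its window. The other lists had fewer matches. The sequence was in 1 of 8 windows of the enzymes above and in 1 of 7 of the eIF2α list. Of the lists described below, it was in 1 of 8 windows of the transporters and 3 of 12 of the other ATF4 program genes. It was in 1 of 12 windows of the ER genes and 0 of 6 of the NRF2 targets.

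Of 8 amino acid transporters, 4 fell and 1 rose, with a median of -0.28. Slc1a5, a glutamine carrier, fell by 0.96 (SE 0.118), and Slc7a5 and Slc3a2, the chains of the LAT1 exchanger for leucine and other large amino acids, by 0.78 (SE 0.104) and 0.49 (SE 0.0959). Slc38a2, which imports small neutral amino acids upon starvation, rose by 0.51 (SE 0.0872). Of 12 other genes of the ATF4 program, 11 were tested, of which 5 fell and 0 rose, with a median of -0.64. Gdf15, a secreted stress cytokine, fell by 2.46 (SE 0.282), and Ddit4, an mTORC1 inhibitor, fell by 1.61 (SE 0.331). Nupr1, a small stress-induced chromatin protein, fell by 1.30 (SE 0.183), and Vegfa, an angiogenic growth factor, fell by 1.20 (SE 0.208). Gdf15, Ddit4, Nupr1 and Vegfa were all highest with GFP, but the share of all tested genes that were highest with GFP was not determined. The RPKM of Ddit4 was 181 with GFP, 60.6 with SMC1 and 66.1 to 123 with the condensin hairpins. Against the condensin libraries, the medians with SMC1 were -0.60 (enzymes), -0.36 (synthetases), -0.36 (transporters) and -0.44 (other ATF4 program genes). In the same order, 5, 9, 5 and 4 genes fell and 0, 0, 1 and 1 rose, beside 21.7% and 22.2% of all tested genes. Ddit4 did not pass in that comparison, and the gene of the last list that rose was Sqstm1.

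The ER chaperone and degradation genes of the ATF6 and XBP1 arms, the other branches of the unfolded protein response, differed in direction. With SMC1, 8 of 12 rose and 0 fell, with a median of 0.44. Dnajc3, a co-chaperone that inhibits PERK, rose by 1.08 (SE 0.107) and Hspa5, which encodes the chaperone BiP, by 1.06 (SE 0.125). Hsp90b1 rose by 0.69 (SE 0.0989) and Manf by 0.55 (SE 0.107). NRF2 also has Slc7a11 as a target. Of 6 other NRF2 target genes, 2 rose (Gclc by 0.65, SE 0.112, and Txnrd1 by 0.63, SE 0.0983) and 1 fell (Nqo1 by 0.73, SE 0.178).

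Under ERCC scaling, where the spread of the fit was larger, 0 genes of the eIF2α, enzyme, synthetase, transporter and other ATF4 program lists passed in either direction. Their medians turned positive at 0.73, 0.27, 0.47, 0.62 and 0.25, all below the median of all genes at 0.88. The ER list then had 2 genes that rose (Hspa5 and Dnajc3) and a median of 1.33. Of the NRF2 list 0 genes passed under ERCC scaling, with Gclc at 1.54 (adjusted p = 0.106), Txnrd1 at 1.52 (0.0877) and Nqo1 turned to 0.16 (0.855).

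Cell type markers moved with these lists in the SMC1 library. Of 6 ESC markers 5 fell under TMM scaling (Esrrb at -3.31, Zfp42 at -2.02), while under ERCC scaling 1 fell (Esrrb), and Pou5f1 (0.15) and Tdgf1 (0.79) lay above GFP. Of 6 tested fibroblast markers 4 rose under TMM scaling (Lox by 2.68, Col1a2 by 1.41) and 3 under ERCC scaling. Of 7 primitive endoderm markers 3 rose and 1 fell under TMM scaling, 2 rose and 0 fell under ERCC scaling, and 1 rose and 1 fell with DESeq2. The part of cell composition in the changes of the 10 genes was not tested.

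**Figure D4:**
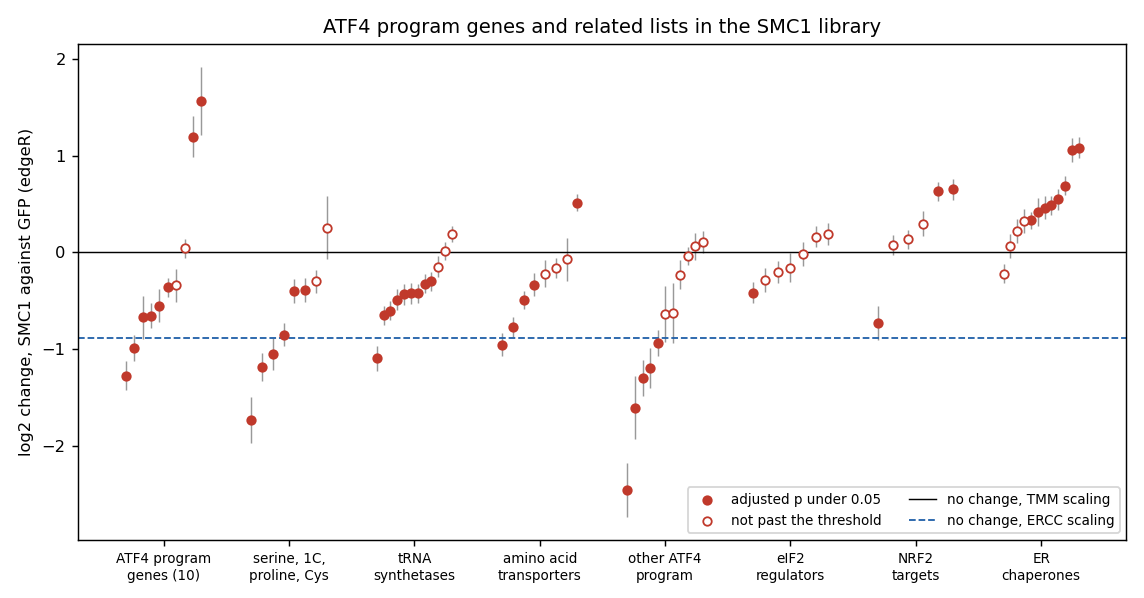
Log2 change with SMC1 against GFP by edgeR for the 10 genes and 7 related lists, 1 point per gene with bars for SE. Filled points passed the test; the solid line is no change under TMM scaling and the dashed line, at -0.89, is where no change would lie under ERCC scaling, so that most points of the synthetase and transporter lists lie between the lines, while all ER genes but Xbp1 lie above both.

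Over the 7 pathway lists, 5 of 64 tested genes passed with CAPH2 (7.81%, beside 7.67% of all tested genes) and 2 with SMC2 (3.12%, beside 6.33%). With CAPH2, Slc1a5, Pycr1 and Gdf15 were lower and Eprs and Hsp90b1 higher than with GFP, and with SMC2 only Slc38a2 and Eprs passed in these lists, both higher. In CAPH2 against SMC2, 0 genes of these lists passed by edgeR.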

How the data were processed

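The authors aligned reads with Bowtie (version not given in the sources used here) to mm9, keeping reads with at most 2 alignments, and counted exonic reads per RefSeq transcript with the program RPKM_count. The deposited files give raw counts and RPKM, the latter scaled by the authors to exon length and each library's reads, not to ERCC RNAs. A library preparation that keeps strand is not stated, so antisense reads cannot be told apart. Of 26073 RefSeq rows, 25353 were named by accession and 698 by overlap with GENCODE genes, and 1 row per gene, with most counts over the 6 libraries, was kept (21094 genes). The 92 ERCC rows stayed out of library sizes. Start positions count from 0 in the files and are given from 1.

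Counts were tested with edgeR 4.0.16 in R 4.3.3 (TMM, quasi-likelihood test, Benjamini-Hochberg adjustment over 14618 genes that reached 10 counts in 2 or more libraries) in 1 fit of 4 groups with 2 residual degrees of freedom. A call is an adjusted p under 0.05, and the SE is the log2 change divided by the root of F. On simulated counts for SMC1 against GFP (14504 genes), the step recovered 192 of 200 genes changed by 1 on the log2 scale with 3 false calls among 195. For CAPH2 against SMC2 (14499 genes) it recovered 197 of 200 with 8 false calls among 205. The simulation gave all libraries the same spread and changed only 200 genes, as many upwards as downwards. It thus cannot test whether the lone libraries vary like the pairs, or the scaling where many genes change. Intervals are exact (Clopper-Pearson, 95%) and cover counting error only. The depth of 18823248 to 23324537 reads leaves Slc7a11, with 24 to 65 counts, imprecise. Copies of the transcripts were sought with blastn 2.17.0 (95% identity, at least 40 bases), and tables and intervals were made in Python 3.11.15 with scipy 1.17.1 and pandas 2.3.3.

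The alternatives were DESeq2 size factors, ERCC scaling, DESeq2 1.42.0, no filter, all RefSeq rows, a pseudocount of 1 RPKM, each hairpin left out, the 4 condensin libraries alone and a replicate block. The 10 genes and the lists were chosen with earlier results of these data known. Named besides the 10 genes and the knockdown targets were, per list, up to 4 genes with the largest log2 RPKM change with SMC1 (mean of at least 50 counts), genes called in CAPH2 against SMC2, and the 5 genes nearest to Atf4 and to Asns. Other genes were named after their values were seen, where a count was small or for their role: Eif2s1, Eif2ak3, Eif2ak4, Eprs, Xbp1, Sqstm1, Pou5f1, Tdgf1, Dcn, Lum, Gata6, Sox17, Foxa2, and genes of the synthetase list with the motif.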

Additional observations from a re-analysis of the deposited data

How the results depend on the processing

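Of the 10 genes, all kept their direction and side of the threshold in SMC1 against GFP with DESeq2 size factors, without the filter, with all RefSeq rows, and without CAPH2 R1 or R2. ERCC scaling turned Atf4 (0.53), Chac1 (0.34), Psat1 (0.23) and Phgdh (0.22) upwards against GFP and Atf4 (0.0518) against the condensin libraries, and none of these passed. Calls under ERCC scaling were 1875 in place of 6995 for SMC1 against GFP and 1410 in place of 6412 for SMC1 against the condensin libraries. They were 4 in place of 1121 for CAPH2 against GFP, 0 in place of 926 for SMC2 against GFP (708 at an unadjusted p under 0.05) and 4 for CAPH2 against SMC2. The common coefficient of variation of the whole fit was then 0.250 in place of 0.0685. Without the filter there were 2080, 1790 and 5 calls for CAPH2 against GFP, SMC2 against GFP and CAPH2 against SMC2, and with all rows 3 calls for the last. Leaving out a hairpin gave 1 (SMC2 R2 left out) to 3487 (CAPH2 R2) calls for CAPH2 against GFP, 0 (SMC2 R2) to 3000 (CAPH2 R1) for SMC2 against GFP, with 348 without SMC2 R1 and 2994 without CAPH2 R2, and 1 to 336 (CAPH2 R2) for CAPH2 against SMC2. The cause was not tested. Replicate numbers did not pair the libraries (correlation of deviations 0.0425), and the replicate block gave 47 calls for CAPH2 against SMC2 (DESeq2 4), with 0 of the 10 genes. By the fold of the study, ERCC scaling gave 4935, 314 and 844 genes for SMC1, CAPH2 and SMC2, in place of 1815, 128 and 88, and medians of the 10 genes of 0.43, 0.26 and 0.60 in place of -0.43, -0.06 and -0.00038. A pseudocount of 1 RPKM gave 1209, 34 and 18 genes. Leaving out a hairpin gave 78 to 308 genes for CAPH2, 111 to 156 for SMC2, and medians of the 10 genes of -0.13 (CAPH2 R2 left out) to 0.027 (CAPH2 R1 left out) for CAPH2 and -0.0507 to 0.0481 for SMC2. With 1 GFP and 1 SMC1 library, a deviation of that culture cannot be told apart from the knockdown.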
